A study of Mus musculus with 8 samples.

Results

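The cytosolic ribosomal protein genes were described in articular cartilage RNA of WT and Oscar-/- mice after sham or DMM surgery. They were taken by symbol, as every protein-coding gene named Rpl or Rps with a number and at most a short suffix, together with Rplp0, Rplp1, Rplp2 and Rpsa. The rule found 83 genes among 52636 in the tables, of which 21819 are protein-coding. It gave 51 genes of the large subunit and 32 of the small subunit, lying on 19 chromosomes with 14 of them on chromosome 7. Of the 83, 77 encode the common proteins and are called core genes here, and 6 are paralogs (Rpl3l, Rpl7l1, Rpl10l, Rpl22l1, Rpl39l and Rps27l). A gene was tested when it was protein-coding and above 1 TPM in at least 1 library. By that measure 82 of the 83 entered the tests, all but Rpl10l, among 12538 genes in all.

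The series held 8 libraries, in which WT and Oscar-/- cartilage was taken 2 or 4 weeks after either operation, with 1 library for each of the 8 conditions. All mice were C57BL/6 males with a labelled age of 10 weeks, and the Oscar-/- animals (KO in library names) lacked the gene of the osteoclast-associated receptor. In DMM surgery the medial meniscus of the knee is destabilized, which leads to osteoarthritis, and sham surgery leaves it in place. RNA from 10 cartilages was pooled in each library, and since conditions were not repeated the spread between pools of one kind is unknown.

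A ribosome is built from 2 subunits, each a shell of proteins around ribosomal RNA, with 1 copy of nearly every protein. The genes that encode these proteins are among the most transcribed in growing and blood-forming cells. Their mRNAs commonly begin with a 5′ terminal oligopyrimidine (TOP) run, a stretch of C and T through which mTORC1 signalling controls their translation.

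Total expected counts were 13189181 to 18533609 per library. Oscar had 42 to 118 expected counts in the 4 WT libraries and 0 in the 4 Oscar-/- libraries, which allows up to 3. Hemoglobin genes took 26.5% to 37.7% of all TPM and 16 neutrophil markers 7.001% to 11.3%, whereas 19 chondrocyte markers, none of them at 0 throughout, took 0.119% to 0.334%. The tissue labelled cartilage therefore held much RNA of blood and marrow cell markers. In bulk RNA, fewer cells of a type and less RNA per cell cannot be told apart. The file names carried 1 sequencing lane tag for all 2-week libraries and, at 4 weeks, a different tag for each genotype. The week thus always coincided with a change of lane, and at 4 weeks the genotypes differed in lane too.

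Pyrimidine runs lay at or near the start sites of many of the genes. RefSeq start sites were listed for 63 of the 83 genes (GRCm38.p6). Some genes have several listed starts, and a gene was counted if any of its starts had the sequence sought. A run of at least 7 C or T touching the 10 bases on either side of an annotated start was present in 34 of the 63 (54.0%), in 22.5% of 27025 genes with a listed start and in 23.4% of the 9843 among them that were tested. Some of these runs lie wholly before or after the annotated start, so the count is not one of 5′ terminal runs. Windows of 30 bases around the start are given for Rps6, whose protein is the known substrate of S6 kinase, for the pair of genes with the highest level, and for genes to which the comparisons below return. Capitals mark the pyrimidine run within the window, and each window begins 15 bases before the annotated start.
Rps6 (chr4:86857353-86857382, minus strand): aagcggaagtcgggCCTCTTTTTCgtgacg
Rps27 (chr3:90213634-90213663, minus strand): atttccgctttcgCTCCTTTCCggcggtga
Rps24 (chr14:24490663-24490692, plus strand): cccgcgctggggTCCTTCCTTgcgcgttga
Rpl7a (chr2:26910792-26910821, plus strand): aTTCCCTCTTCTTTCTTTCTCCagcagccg
Rpl15 (chr14:18270972-18271001, minus strand): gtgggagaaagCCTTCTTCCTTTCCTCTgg
Rpl18 (chr7:45718056-45718085, plus strand): tgcgtctcgcaggccgCTCTTTCCCCgccc
Rpl35 (chr2:39005117-39005146, minus strand): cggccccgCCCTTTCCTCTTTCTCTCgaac
Rps21 (chr2:180257364-180257393, plus strand): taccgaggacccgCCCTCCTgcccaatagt
Rpl5 (chr5:107900513-107900542, plus strand): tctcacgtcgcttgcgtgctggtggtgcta
The runs of Rpl7a, Rpl35 and Rpl15 had 21, 18 and 17 pyrimidines, those of Rps6, Rps27 and Rps24 had 10, 9 and 9, and the window of Rpl5 held no run of 7. Rps24 and Rps21 each have another listed start, whose window held no such run and is not shown. In the 300 bases around the start, the ETS-type core CGGAAG or its reverse complement CTTCCG was present for 66.7% of the 63 genes against 34.7% of tested genes with a listed start. The YY1-type core ATGGCG or CGCCAT was present for 33.3% against 17.4%, and GGGCGG or CCGCCC for 61.9% against 67.8%. TATAAA on the gene's own strand, between 50 and 15 bases before the start, was found for 1.59% of the ribosomal protein genes and 1.66% of tested genes. These are matches of letters, and no binding was measured.

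The 83 genes together took a steady share of the transcript pool. TPM is a level per transcript length, in which each library adds up to the same total. The libraries of each week are given below in the order WT sham, WT DMM, KO sham, KO DMM. The genes took 9.35%, 8.79%, 8.75% and 9.19% of all TPM at 2 weeks. At 4 weeks the shares were 9.14%, 9.06%, 8.49% and 8.88%. The highest share was 1.10 times the lowest. Over the same libraries the median TPM of all genes tested ranged from 6.90 in WT sham at 2 weeks to 11.02 in WT DMM at 4 weeks. Large subunit genes summed to 1.14 to 1.19 times the TPM of small subunit genes in every library, from 51 genes against 32. Reads of 292 pseudogenes with the same symbol roots added counts equal to 1.34% to 1.498% of those of the 83 genes, and how many were divided wrongly between gene and pseudogene was not tested.

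The scale on which libraries are compared changed this picture. With the hemoglobin genes left out, the share of the remaining TPM was 15.003%, 12.7%, 12.9% and 14.03% at 2 weeks. At 4 weeks it was 12.99%, 13.1%, 11.5% and 14.1%, so that the highest was 1.30 times the lowest. WT sham at 2 weeks and KO sham at 4 weeks stood at the ends of this range. The hemoglobin genes themselves took 37.7%, 30.7%, 32.4% and 34.5% at 2 weeks and 29.6%, 31.0%, 26.5% and 37.0% at 4 weeks, with the same libraries at the ends. TMM scaling sets libraries so that most genes do not differ, and on counts scaled by library size in this way (TMM-scaled CPM) the sum in WT sham at 2 weeks was 1.31 times the mean of the 8 libraries. The sums in the other libraries were 0.968, 1.01 and 1.11 times the mean at 2 weeks and 0.894, 0.849 and 0.860 times in the first 3 libraries at 4 weeks, with the last at the mean. On that scale 76 of the 77 core genes had their highest value in WT sham at 2 weeks. On TPM that library was highest for 25 core genes, and Oscar-/- sham at 4 weeks was lowest for 38. The hemoglobin share moved largely with the share outside hemoglobin genes. The latter is divided by what the hemoglobin genes leave, so the match follows in part from arithmetic. The part of red cell RNA in the values on these scales was not tested.

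**Figure D1:**
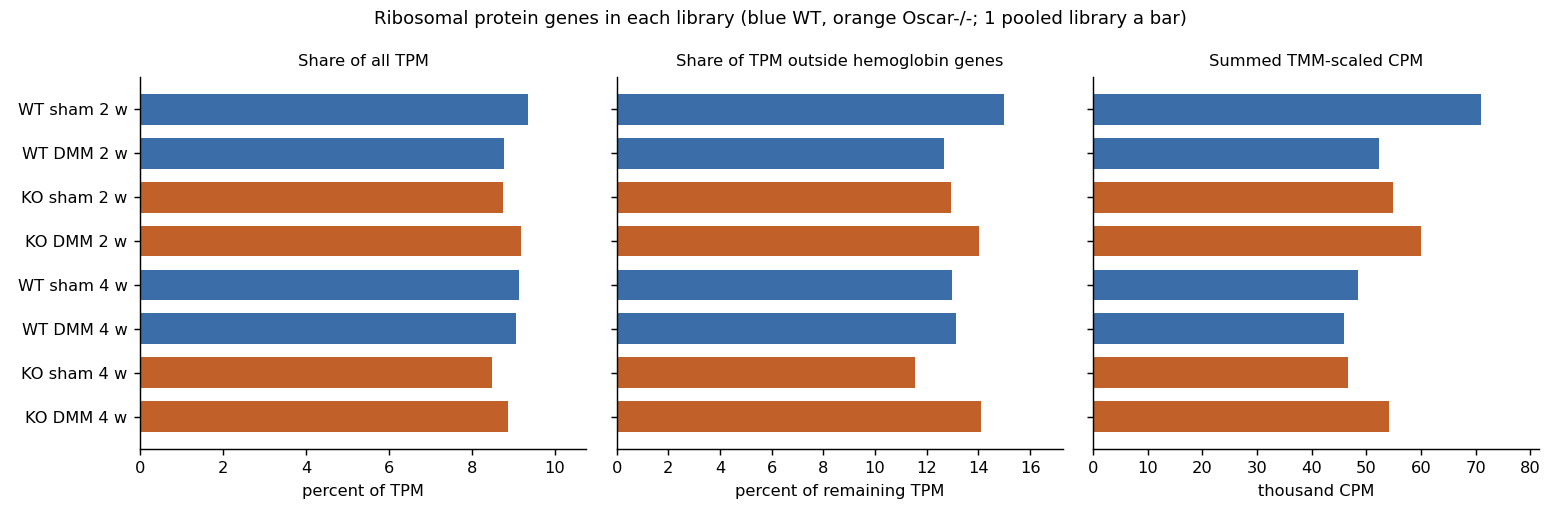
Summed level of the ribosomal protein genes in each of the 8 libraries, as a share of all TPM (left, percent), as a share of TPM outside the hemoglobin genes (middle, percent) and as TMM-scaled CPM (right, in units of 1000). Each bar is 1 pooled library, blue for WT and orange for Oscar-/-, with no error bar because no condition was repeated. The left bars lie between 8.49% and 9.35%, and WT sham at 2 weeks stands out in the right panel.

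Within the group, levels spanned a narrow band for core genes and a wide one for paralogs. Mean TPM over the 8 libraries ran from 369 for Rpl37 to 2763 for Rps27 among the 77 core genes, with medians of 871 for the large and 1190 for the small subunit. Rps27, a zinc finger protein of the small subunit, read 3301, 3057, 2831 and 2964 TPM at 2 weeks and 2372, 2433, 2430 and 2718 at 4 weeks. In TPM all of its 4-week values lay below all of its 2-week values, as was found for 0.542% of all genes. On TMM-scaled CPM the weeks overlapped, at 593 to 857 and 461 to 630. Rps24, Rpl41, Rplp1, Rpl13a and Rps29 followed with means of 2664, 2659, 2579, 2524 and 2438 TPM. Rplp1 and Rplp2 are the acidic proteins that form the stalk on Rplp0, where elongation factors dock. Rplp2 and Rplp0 had means of 1163 and 1426 TPM, below Rplp1. Rpsa, which is also known as a laminin receptor precursor, averaged 1494 TPM and Rps6 1163 TPM.

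**Figure D2:**
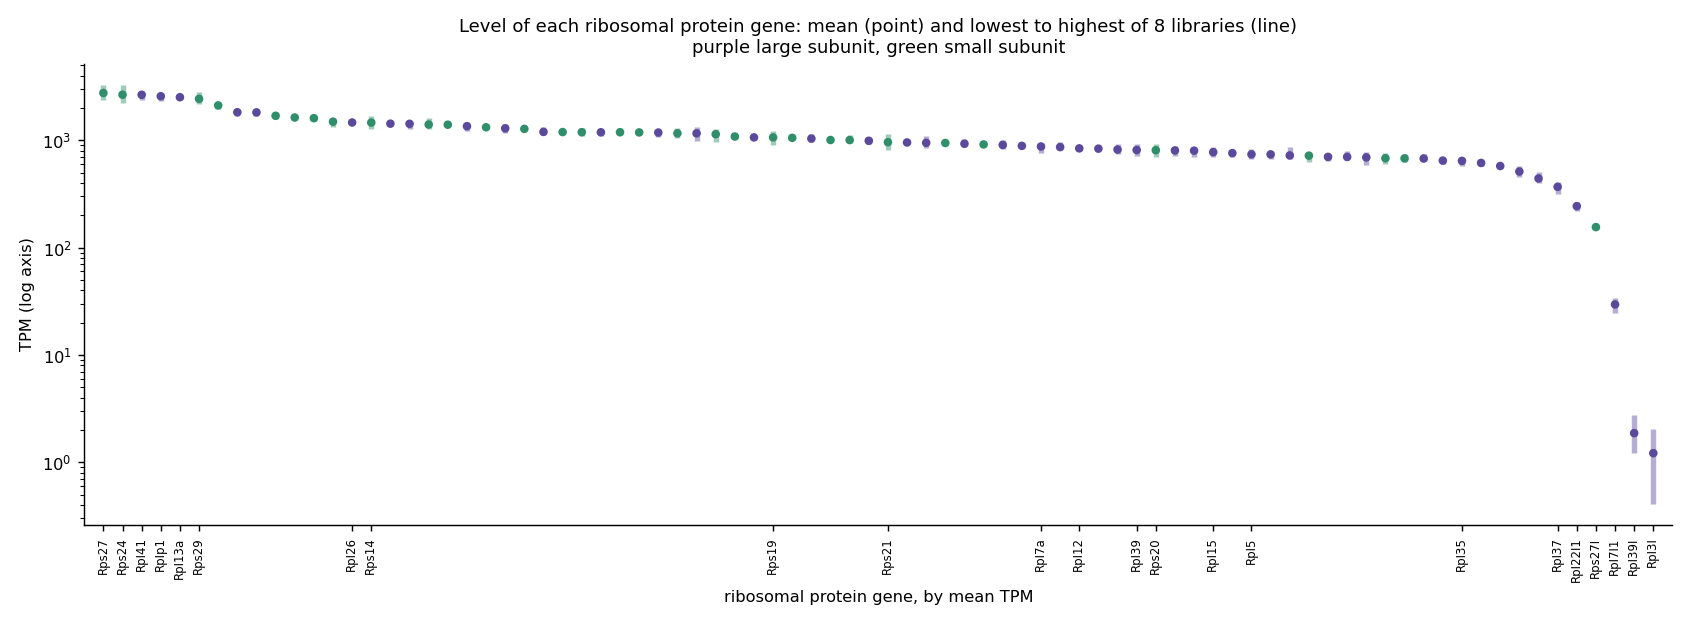
TPM of the 82 ribosomal protein genes with reads, on a log axis and ordered by mean, with the mean as a point and the lowest to highest of 8 libraries as a line (purple for the large subunit, green for the small), with names under some of them. The 77 core genes lie between means of 369 and 2763 TPM with short lines, and the paralogs drop away at the right, down to Rpl39l and Rpl3l.

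The core genes varied little between libraries on the TPM scale. Their coefficient of variation over the 8 libraries had a median of 5.60% and went from 2.06% for Rpl26 to 14.6% for Rps21. Among 157 other genes with a mean of at least 300 TPM the median was 12.98%, and over all genes tested it was 18.9%. Rpl26, which lies near the exit of the peptide tunnel, read 1505, 1422, 1425 and 1493 TPM at 2 weeks and 1485, 1474, 1458 and 1477 at 4 weeks. No library of Rpl26 stood apart. On TMM-scaled log2 CPM, each core gene was set against the median of the other core genes. Pearson's r over the 8 libraries had a median of 0.955 and was above 0.9 for 67 of 77, a description in which all genes share the same libraries and scaling. Rpl35 (r = 0.992), Rps19 (0.991) and Rpl12 (0.989) were among those that followed the median most closely. Rps21 (r = 0.13), Rps29 (0.51) and Rpl39 (0.69) followed it least among core genes.

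The paralogs were of 2 kinds, those read well beside their partner and those barely read. Rpl22l1, the paralog of Rpl22, read 268, 261, 242 and 247 TPM at 2 weeks and 237, 234.5, 219 and 241 at 4 weeks. That was 32.7% to 37.4% of Rpl22 in the same library. Rps27l, known as a p53-induced gene, stood at 149 to 159 TPM in the 8 libraries and at 4.75% to 6.63% of Rps27. Rpl7l1 stood at 24.6 to 34.3 TPM, 2.68% to 3.96% of Rpl7. Outside the symbol rule, Rpl36al was at 42.4% to 48.2% of Rpl36a.

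Rpl3l replaces Rpl3 in striated muscle, while Rpl10l and Rpl39l are known from male germ cells. Rpl3l had 38, 19, 6 and 15 expected counts at 2 weeks and 18, 17, 30 and 20 at 4 weeks, which was 0.0542% to 0.309% of Rpl3 in TPM. Skeletal muscle markers, 15 genes with none at 0 throughout, took 0.00772% to 0.0324% of TPM, highest in WT sham at 2 weeks. Rpl3l had its largest count in that library, which also had the largest total, but its highest TPM (2.06, against 1.71 there) was in Oscar-/- sham at 4 weeks. The part of muscle RNA in the Rpl3l reads was not tested. Rpl39l had 18, 31, 19 and 15 counts at 2 weeks and 15, 21, 10 and 25 at 4 weeks, or 0.134% to 0.375% of Rpl39. Of 8 germ cell markers 4 were at 0 in every library and the sum was at most 0.00014% of TPM. Rpl10l had 0 counts in every library, which allows up to 3 counts in each.

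The first comparison asked whether loss of Oscar changed these genes, with week and surgery in the model. Differences of opposite sign after sham and after DMM offset each other in this model and add to its residual spread. No ribosomal protein gene passed the test. In edgeR's quasi-likelihood test 0 of 82 passed an adjusted p of 0.05 in either direction, as against 0.00798% of all genes tested higher and 0.0399% lower, and 0 of 82 had an unadjusted p under 0.05, against 1.24% and 1.45% of all genes. DESeq2 and limma on log2(TPM + 1) also called 0, where they called 0.0399% and 0.00798% of all genes higher and 0.0399% lower. The median log2 fold change (Oscar-/- over WT) was 0.00 and the core genes lay between -0.10 and 0.11, with a median standard error of 0.12. The lowest p belonged to Rpl29 at -0.10 ± 0.10 (SE, edgeR adjusted p = 0.9997 over all genes). Rpl39 stood at 0.11 ± 0.12 and Rps15a at 0.11 ± 0.12. Rps19, Rpl5 and Rpl11, whose human counterparts are mutated in Diamond-Blackfan anaemia, gave no call either. The sign of the median of the 82 depended on the library left out, with values of -0.08 to 0.12. The highest came without WT sham at 2 weeks, where the median of all genes was 0.01. With lane in place of week the median of the 82 was -0.09, against 0.01 for all genes.

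The second comparison asked whether DMM surgery changed the ribosomal protein genes, with both genotypes and weeks pooled. Responses of opposite sign in the genotypes offset each other in this model and add to its residual spread. Again 0 of 82 passed, as against 0.0% of all genes in each direction, and 0 had an unadjusted p under 0.05, against 3.87% higher and 2.55% lower. DESeq2 and limma called 0 of the 82. Of all genes DESeq2 called 0.399% higher and 0.183% lower, and limma 0.0957% and 0.0718%. The median log2 fold change (DMM over sham) was -0.04, with core genes between -0.09 and 0.01. The largest values were those of the barely read Rpl39l (0.43 ± 0.29) and Rpl3l (-0.47 ± 0.40). The sign of the median of the 82 depended on the scale, being 0.01 on log2(TPM + 1), and on the library left out, with values of -0.13 to 0.08.

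The third comparison was between weeks, and here some members fell. At 4 weeks 5 of 82 were lower than at 2 weeks by edgeR with TMM scaling and 0 were higher, as against 2.35% of all genes lower and 5.58% higher. Among them were Rps14 (log2 fold change -0.56 ± 0.13, adjusted p = 0.0305), Rpl7a (-0.42 ± 0.10, 0.0351), Rpl5 (-0.53 ± 0.13, 0.0374) and Rpl15 (-0.44 ± 0.11, 0.0411). Rps14 is among the genes lost in the human 5q- syndrome, and Rpl5 binds 5S ribosomal RNA together with Rpl11. The median of the 82 was -0.26 against -0.02 for all genes tested, and 40 had an unadjusted p under 0.05, all of them lower, against 13.1% of all genes lower and 14.1% higher. The median was -0.26 for each subunit.

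Rps14 showed the fall on both scales. Its TPM was 1703, 1661, 1552 and 1586 at 2 weeks and 1288, 1289, 1289 and 1349 at 4 weeks, a mean of 1625 ± 68.9 (SD, n = 4) against 1304 ± 30.3 (SD, n = 4). On TMM-scaled CPM it was 1303, 989, 968 and 1029 at 2 weeks and 683, 663, 718 and 838 at 4 weeks. The groups did not overlap on either scale, a fall found without overlap for 0.542% of all genes in TPM and 8.09% on TMM-scaled CPM. Rpl5 went from 831, 794, 765 and 769 TPM to 673, 698, 683 and 719, and these groups did not overlap either. Rps24 also fell on TPM, from 3262, 2917, 2899 and 2905 to 2328, 2311, 2225 and 2468.

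Other members lay on the opposite side. Rps21, a small protein whose gene has a run of 7 pyrimidines at a listed start but not at another, read 846, 814, 817 and 860 TPM at 2 weeks and 1103, 1148, 1064 and 1045 at 4 weeks. Every 4-week value exceeded every 2-week value. Rps29, a zinc-binding protein, read 2322, 2229, 2160 and 2232 TPM and then 2802, 2724, 2441 and 2591, again without overlap. Such a rise in TPM without overlap was found for 27.9% of all genes. On log2(TPM + 1) the change was 0.39 for Rps21 and 0.24 for Rps29, where the median of all genes tested was 0.23. On TMM-scaled counts neither was called (0.23 ± 0.10 with an edgeR adjusted p of 0.19 for Rps21, and 0.09 ± 0.12 with 0.67 for Rps29). Rps19 read 975, 909, 920 and 991 TPM and then 1172, 1194, 1156 and 1211, but its TMM log2 fold change was -0.20 ± 0.12 (adjusted p = 0.31). RSEM's isoform-weighted length of Rps19 averaged 696 bases at 2 weeks and 603 at 4 weeks, and its TPM was called higher where its scaled count was not.

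The number of members called between weeks changed with the scale and with the test. By edgeR with RLE factors it stayed at 5 lower and 0 higher, against 297 lower and 699 higher of all 12538 genes. With total counts as the scale edgeR called 1 higher (Rps21) and 3 lower, against 10.7% and 0.678% of all genes. On log2(TPM + 1), limma called 6 higher (Rpl37, Rpl39, Rps19, Rps20, Rps21 and Rps29) and 3 lower (Rps14, Rps24 and Rps27), as against 21.0% of all genes higher and 0.479% lower. With 0.1 in place of 1 it called 7 higher and 3 lower, against 20.9% and 0.479%. With 1 added, the median of the 82 was -0.0049 and that of all genes 0.23. Relative to all genes the shift was thus -0.24, as on TMM-scaled counts. With 0.1 added, the shift relative to all genes was -0.28. Without overlap between weeks on TPM, 10 members were higher and 12 lower, against 27.9% and 0.542% of all genes. On TMM-scaled CPM these were 0 higher and 21 lower, against 10.6% and 8.09%. With the summed ribosomal protein counts themselves as the scale, a choice made after seeing the data, edgeR called Rps21 (0.51, adjusted p = 0.0175) and Rps29 (0.37, 0.0312) higher and 0 lower, against 6.3% and 0.0877% of all genes. Rps14 stood at -0.28 on that scale (adjusted p = 0.0715). DESeq2, another test on counts, called 24 lower and 0 higher, against 2.98% and 5.16%.

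Leaving out 1 library also changed these calls. The count of members lower at 4 weeks was 12 without Oscar-/- DMM at 4 weeks, against 1.85% of all genes. It was 0 without any one of Oscar-/- DMM at 2 weeks, WT sham at 4 weeks, WT DMM at 4 weeks and Oscar-/- sham at 4 weeks, against 0.845%, 0.375%, 1.52% and 0.662%. Without WT sham at 2 weeks it was 2 (Rpl5 and Rps14), against 1.63%, 1 was higher (Rps21), against 4.27%, and the median of the 82 was -0.13. Without Oscar-/- sham at 2 weeks it was again 2, against 1.2%, and without WT DMM at 2 weeks 3, against 1.28%. Each of these shares of all genes, that beside the 12 members included, was below the 2.35% called lower with every library. The log2 fold change of Rps14 stayed between -0.68 and -0.42 throughout.

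Cell markers and library properties moved with the week. All 10 platelet and megakaryocyte markers were called higher at 4 weeks by edgeR (median log2 fold change 2.04), and their summed level was 0.0119% to 0.0180% of TPM at 2 weeks and 0.0543% to 0.0907% at 4 weeks. Of 15 B cell markers tested 10 were called lower (median -0.52), although the summed level of that list was 0.1095% to 0.142% of TPM at 2 weeks and 0.127% to 0.160% at 4 weeks. Of all genes edgeR called 5.58% higher and 2.35% lower between weeks. None of either marker list was at 0 in every library. Mitochondrially encoded RNA took 4.75% to 7.99% of TPM at 2 weeks and 3.89% to 4.90% at 4 weeks. The part of these in the week results was not tested. The gap between length and effective length for genes over 3000 bases, a measure of fragment length, was 172 to 176 bases at 2 weeks and 145 to 152 at 4 weeks. Among the 77 core genes, longer ones had lower TMM log2 fold changes, with a Spearman rho across genes of -0.44 (genes are not independent replicates). Core genes under 500 bases had a median of -0.20 and those of 1000 or more -0.36, in 12 and 9 genes. On log2(TPM + 1), which divides by effective length, rho was -0.21. Week, lane and fragment length cannot be told apart in these libraries.

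**Figure D3:**
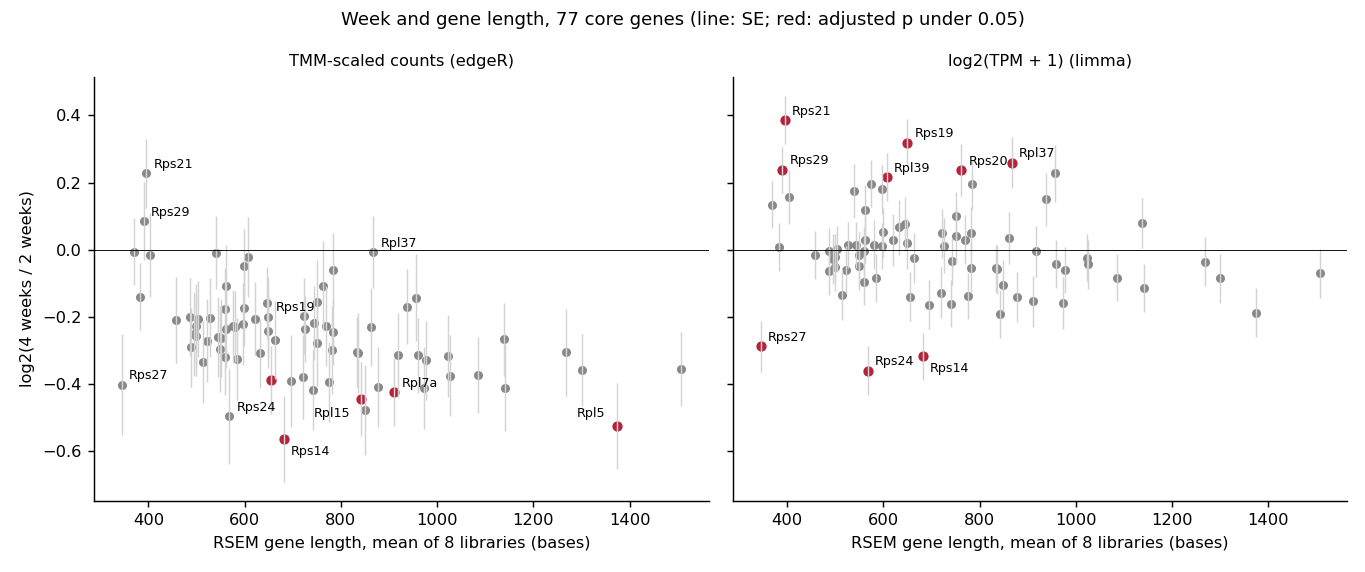
Log2 fold change of the 77 core genes at 4 weeks over 2 weeks against RSEM gene length in bases, on TMM-scaled counts (left, edgeR) and log2(TPM + 1) (right, limma). Each point is a gene with its standard error, red where the adjusted p was under 0.05, and the 5 red genes at left all lie below 0 whereas at right 6 lie above and 3 below.

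The fourth comparison was the interaction, which asked whether the response to DMM differed between the genotypes. By edgeR 0 of the 82 passed the test, as against 1.41% of all genes higher and 3.83% lower, although the estimates of the core genes lay close together on the positive side. The interaction log2 fold change, the DMM response in Oscar-/- minus that in WT, had a median of 0.43 over the 82 and -0.01 over all genes tested. Core genes ranged from 0.32 to 0.57 with a median standard error over the 82 of 0.17. An unadjusted p under 0.05 was reached by 69 of 82, all positive, as against 11.0% of all genes higher and 13.2% lower. The lowest adjusted p values were 0.0638 for Rpl18 (0.47 ± 0.13), 0.0643 for Rpl35 (0.57 ± 0.16) and 0.0688 for Rps2 (0.52 ± 0.15). Rpl39l alone was negative (-0.36, and between -0.86 and 0.25 when a library was left out). DESeq2 called 12 higher (Rpl8, Rpl11, Rpl18, Rpl27a, Rpl35, Rplp0, Rplp2, Rps2, Rps6, Rps7, Rps9 and Rpsa), against 1.32% of all genes, and 0 lower, against 2.22%. Without a filter on TPM, edgeR called 3 higher (Rpl18, Rpl35 and Rps2), against 1.65%. On log2(TPM + 1) limma called 0 of 82, against 0.0638% of all genes called higher and 2.73% lower. It had 3 of the 82 at an unadjusted p under 0.05, for which no share of all genes is given.

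On the TMM scale Rpl35, a large subunit protein near the tunnel exit, read 605, 420, 431 and 492 scaled CPM at 2 weeks and 412, 379, 367 and 445 at 4 weeks. It was thus lower after DMM than after sham in both WT pairs and higher in both Oscar-/- pairs. Rps6 read 1300, 949, 1046 and 1168 at 2 weeks and 850, 783, 800 and 926 at 4 weeks, with the same signs. Rpl18 read 511, 380, 399 and 431, then 423, 366, 349 and 401. In all of them WT sham at 2 weeks was the highest library. In TPM, Rpl35 read 681, 596, 586 and 675 at 2 weeks and 684, 667, 583 and 678 at 4 weeks. The directions were the same, and the log2 steps were smaller than on the TMM scale in 3 of the 4 pairs but not in Oscar-/- at 2 weeks (0.20 in TPM and 0.19 in TMM-scaled CPM).

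Pair by pair, the median log2(DMM/sham) of the 82 genes in TPM was -0.08 (WT) and 0.07 (Oscar-/-) at 2 weeks. At 4 weeks it was -0.01 and 0.06. The medians of all genes tested had the opposite sign in each pair, at 0.35, -0.03, 0.05 and -0.15. On TMM-scaled CPM, where the median of all genes is near 0 in each pair, the ribosomal protein genes stood at -0.44, 0.12, -0.07 and 0.21. The difference between genotypes (DIF, Oscar-/- minus WT) had a median of 0.16 at 2 weeks and 0.08 at 4 weeks in TPM, where all genes had -0.41 and -0.22. On the TMM scale it was 0.57 and 0.28. DIF was above 0 at both weeks for 64 of 82 in TPM, against 9.09% of all genes, and for 80 of 82 on the TMM scale, against 34.7%. Lower after DMM in both WT pairs and higher in both Oscar-/- pairs were 37 of 82 in TPM, against 2.57% of all genes, 69 on the TMM scale, against 16.8%, and 33 in TPM outside hemoglobin genes, against 7.94%. The reverse held for 0 of 82 on each scale, against 27.4%, 12.9% and 14.6% of all genes. No pair was repeated, so these values carry no test of their own.

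**Figure D4:**
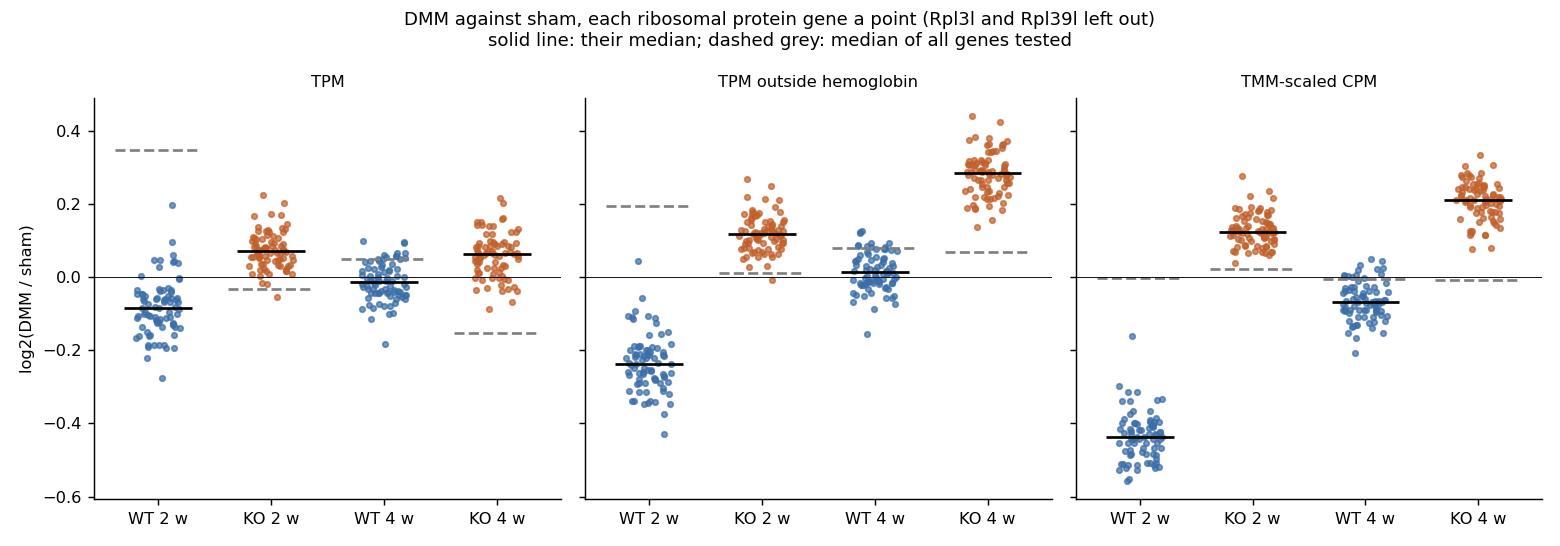
Log2(DMM/sham) of each ribosomal protein gene in the 4 pairs of libraries, in TPM, in TPM outside hemoglobin genes and in TMM-scaled CPM, with their median (solid line) and the median of all genes tested (dashed). In TPM the points lie within about the same band near 0 in every pair while the dashed line moves from 0.35 to -0.15, and on the TMM scale the dashed line stays near 0 and the points move from -0.44 to 0.21.

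The size of the interaction followed the scale, and its position relative to all genes did so less. The median of the 82 was 0.44 with RLE factors, 0.43 with upper quartile factors and 0.43 without hemoglobin genes. It was 0.29 with total counts, 0.11 on log2(TPM + 1) and -0.01 with the summed ribosomal protein counts as the scale. The median of all genes was -0.14, -0.26 and -0.43 under the last 3, and the gap between both medians lay between 0.38 and 0.44 under each of these scales. Without WT sham at 2 weeks the median was 0.24, and without WT sham at 4 weeks it was 0.62 with 78 of 82 called higher, against 7.69% of all genes. Without any other single library 0 were called. Erythroid markers moved the same way, with a median interaction of 0.61 over 11 genes and 3 of them called higher by edgeR. So did skeletal muscle markers (0.93, 1 of 14 called higher), platelet and megakaryocyte markers (0.90, 6 of 10) and cell cycle genes (0.41, 4 of 18). Neutrophil (0.19), B cell (-0.10) and macrophage and osteoclast markers (-0.22) had 0 called in either direction. Fibroblast markers had a median of -1.10 with 9 of 12 called lower. Endothelial markers (-0.48, 6 of 12), osteoblast and osteocyte markers (-0.72, 5 of 12) and chondrocyte markers (-0.78, 3 of 17) were also lower in part. Of all genes tested edgeR called 1.41% higher and 3.83% lower in the interaction. Summed, the fibroblast markers took 0.0781% and 0.0822% of TPM in WT sham, 0.184% and 0.212% in WT DMM, 0.122% and 0.160% in Oscar-/- sham and 0.0980% and 0.163% in Oscar-/- DMM. The part of these cell markers in the interaction was not tested.

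**Figure D5:**
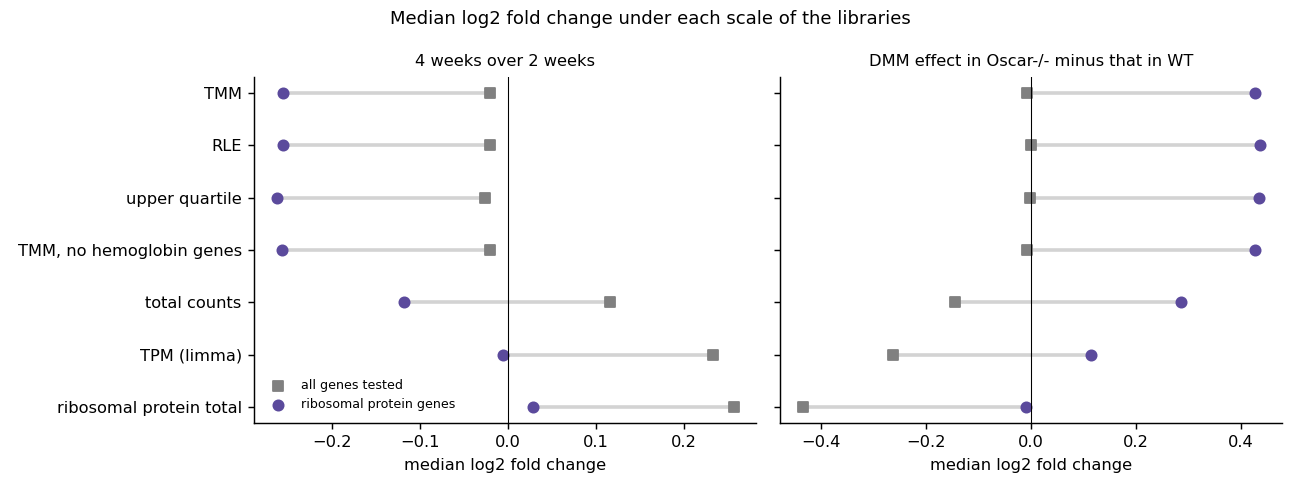
Median log2 fold change of the 82 ribosomal protein genes (purple circles) and of all genes tested (grey squares) between weeks (left) and for the interaction (right), under each of 7 ways to scale the libraries. Both markers shift together from row to row, so that the interaction median of the ribosomal protein genes goes from 0.43 to -0.01 while the grey line between the markers keeps about the same length.

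Other parts of the translation machinery were read from lists of their own. The 5 ribosomal protein genes outside the symbol rule, Fau and Rack1 among them, had an interaction median of 0.41 and a week median of -0.22. In edgeR 0 of 5 passed either test. An unadjusted p under 0.05 was reached by 4 and 3, against 24.2% and 27.2% of all genes. Of 11 elongation factor genes tested, 1 was higher in the interaction by edgeR, against 1.41% of all genes. It was Eef1d (0.58 ± 0.13, adjusted p = 0.0347), a subunit of the exchange factor that reloads eEF1A with GTP. Another, the termination factor gene Gspt1, was lower at 4 weeks (-0.26 ± 0.06, adjusted p = 0.0412), against 2.35% of all genes. Eef1a1, which delivers aminoacyl-tRNA, read 3207 to 4007 TPM, above every ribosomal protein gene on average, and Tpt1, another TOP mRNA, 2332 to 2745.

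Among 31 initiation factor genes, 4 fell and 1 rose between weeks by edgeR, against 2.35% of all genes lower and 5.58% higher. Eif3e (-0.46 ± 0.09), Eif3h (-0.44 ± 0.09), both of the eIF3 scaffold, Eif2s1 (-0.37 ± 0.08) and Eif5b (-0.30 ± 0.07) were lower at 4 weeks, and the helicase gene Eif4a2 was higher (0.30 ± 0.07). None of the 31 passed the interaction by edgeR, with 14 at an unadjusted p under 0.05, against 24.2% of all genes. Of 50 ribosome assembly factors, 7 were lower at 4 weeks, against 2.35% of all genes, and 0 higher. The 7 included Nsa2 (-0.47 ± 0.10), Ddx10 (-0.43 ± 0.09), Nip7 (-0.38 ± 0.08) and Npm1, nucleophosmin (-0.42 ± 0.10). Nhp2, a protein of the particles that modify ribosomal RNA, was the 1 of 50 called higher in the interaction (0.54 ± 0.12, adjusted p = 0.0324), against 1.41% of all genes. None of 22 RNA polymerase I and III subunit genes passed any test by edgeR. An unadjusted p under 0.05 was reached by 3 between weeks and 2 in the interaction, against 27.2% and 24.2% of all genes. Among 28 genes of mTORC1 and TOP mRNA control, 1 was higher at 4 weeks, Rragd (0.53 ± 0.13, adjusted p = 0.0385), against 5.58% of all genes. Sesn3, an inhibitor of mTORC1, was the 1 called lower in the interaction (-0.69 ± 0.14, adjusted p = 0.025), against 3.83%.

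These list medians shared the dependence on scale. On log2(TPM + 1) the week median was 0.11 for initiation factors and 0.13 for assembly factors, positive where the TMM medians were -0.21 and -0.16. The interaction medians on log2(TPM + 1) were -0.04 for both lists, against 0.27 and 0.25 on the TMM scale. The medians of all genes on log2(TPM + 1) were 0.23 and -0.26.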

How the data were processed

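Articular cartilage RNA of WT and Oscar-/- mice was measured by stranded paired-end mRNA sequencing in 8 libraries, 1 per genotype, surgery and week. After trimming, the authors mapped the reads with STAR (GRCm38) and estimated gene levels by RSEM. In the submitters' processing notes the versions are RSEM 1.2.17, STAR 2.6.0a and FastQC 0.11.8, and the build given there is human, although the gene identifiers are of mouse. The deposited expected counts are estimates that divide shared reads between genes, so paralogs and pseudogenes may exchange reads. Count tests used them rounded. The deposited TPM values add up to the same total per library, so abundant genes shift all others. The gene length and effective length that the authors deposited are in bases.

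Identifiers were matched to GENCODE M21 (52403 of 52636). The edgeR 4.0.16 quasi-likelihood tests used TMM scaling, additive terms for week, surgery and genotype (4 residual degrees of freedom) or these plus the genotype by surgery interaction (3), and Benjamini-Hochberg adjustment over 12538 genes. No condition was repeated, so p-values measure the spread left after the model terms. Alternatives used DESeq2 1.42.0, limma 3.58.1, other scales and filters, and the leaving out of each library, with R 4.3.3, Python 3.11.15, pandas 2.3.3 and numpy 2.4.6. The edgeR tests were also run on simulated counts in which each gene varied on its own. Ribosomal protein genes moved together across libraries, so that run does not check the tests for them as a group. Ratios of single libraries had no pseudocount. Counting intervals were not used, and floors for a count of 0 (3 counts) cover counting error alone.

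Genes named were the 6 highest and 6 lowest by TPM, up to 6 per direction of lowest p in each test, the least and most like the group's median, paralog pairs, genes of known role and up to 4 per translation list. Rps24, Rps20, Rpl37 and Rpl26, and those named in counts, were also named after their values were seen. The members and lists were chosen with earlier results of these data known. Start sites and sequences came from RefSeq on GRCm38.p6. Protein sequences were not used here, and some genes that the rule names are not reported here.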

Additional observations from a re-analysis of the deposited data

Results flagged for a closer look

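The response to DMM had opposite signs in the genotypes for many ribosomal protein genes, in a number that depended on the scale. In TPM, 37 of 82 were lower after DMM in both WT pairs and higher in both Oscar-/- pairs, against 2.57% of all genes. On TMM-scaled CPM these were 69 of 82, against 16.8%, and in TPM outside hemoglobin genes 33 of 82, against 7.94%. The reverse pattern was found in 0 of 82 on each of the 3 scales, against 27.4%, 12.9% and 14.6% of all genes in the same order. In WT at 4 weeks the medians of the 82 were near 0, at -0.014, -0.067 and 0.014. The difference between genotypes was not tested in these counts. Each pair is 1 library against 1, and the 82 genes share these libraries.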

How the results depend on the processing

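No paired analysis was possible because the labels carry no replicate numbers and each condition has 1 library. With 1 pool per condition, depth is no limit for the core genes, whose precision rests on the spread between libraries, whereas Rpl3l and Rpl39l rest on at most 38 counts. The genotype and surgery counts stayed at 0 in each direction under every alternative run. For week, the count of ribosomal protein genes higher at 4 weeks was 1 with total counts, 2 with the ribosomal protein total as the scale (chosen after seeing the data), 6 on log2(TPM + 1) and 7 on log2(TPM + 0.1) with limma, against 10.7%, 6.3%, 21.0% and 20.9% of all genes, and 0 to 1 when a library was left out. The count lower was 3, 0, 3 and 3 under the same alternatives (0.678%, 0.0877%, 0.479% and 0.479% of all genes), 24 with DESeq2 (2.98%) and 0 to 12 when a library was left out (0.375% to 1.85%). For the interaction, the count higher was 12 with DESeq2 (1.32%), 3 with no TPM filter (1.65%) and 0 to 78 when a library was left out. The cause was not tested.

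The WT median of log2(DMM/sham) was -0.44 (TMM-scaled CPM) and -0.24 (TPM outside hemoglobin genes) at the earlier time and -0.067 and 0.014, a change of sign, at the later. The KO medians were 0.12 and 0.12, then 0.21 and 0.28. Median DIF was 0.57 and 0.36 at 2 weeks and 0.28 and 0.27 at 4 weeks. Where a library was left out, that of the other week took its place. These swaps are given in TPM, and none is given on the other scales. With every library in place the TPM medians were -0.084 (WT) and 0.072 (Oscar-/-) at 2 weeks and -0.014 and 0.062 at 4 weeks. With the swaps they were -0.064 to -0.028 in WT and 0.0095 to 0.12 in Oscar-/- at either week. Median DIF in TPM was 0.16 and 0.078 with every library. With the swaps it was 0.082 to 0.20 at the earlier time and 0.025 to 0.13 at the later. The lowest Oscar-/- values came without DMM at 2 weeks and without sham at 4 weeks. The lowest and highest share of TPM were 11.5% and 15.003% outside hemoglobin genes, 8.45% and 9.31% for core genes alone and 8.68% and 9.55% with pseudogenes added.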
